A study of Mus musculus with 34 samples.

Results

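The direct comparison of CEBPB with STAT3C in C17.2 cells was taken from 8 of the 34 mouse arrays of the series: 4 arrays of cells given CEBPB alone and 4 of cells given STAT3C alone. C17.2 is a line of immortalised mouse neural stem cells, and STAT3C is a constitutively active form of the transcription factor STAT3. Both factors were carried by retroviruses, and 2 further C17.2 groups of 4 arrays each, STAT3C+CEBPB (both factors) and the empty pBabe vector (control), shared the estimate of spread. Replicate numbers only name arrays, in the order of deposition. The same contrast in primary neural stem cells (NSC; 4 CEBPB and 4 STAT3C arrays) was used for comparison. The labels do not say whether arrays came from separate cultures or whether transduced cells were pooled or cloned, so a p-value here takes in only the spread from array to array, which may be technical.

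STAT3 is a transcription factor that signalling from cytokine receptors switches on through JAK kinases, and it binds DNA at paired TTC and GAA half-sites. CEBPB is a basic leucine zipper factor of the C/EBP family, which is known for its part in acute-phase, inflammatory and fat cell gene programmes. Both are often induced by the same cytokines and share target genes, and they have been studied in brain tumours with mesenchymal gene expression. The question here is which transcripts differ between cells carrying 1 factor and cells carrying the other.

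Levels are given on the log2 scale after background correction and quantile normalisation, and a difference is CEBPB minus STAT3C, so that a positive value means higher with CEBPB. A gene was tested where its probe had a detection p below 0.05 on at least 4 of the 16 C17.2 arrays, which left 9699 genes. It was called at an adjusted p below 0.05 (limma, Benjamini-Hochberg over all genes tested). A group with no detected array has no measured level for the gene, and the fold is then given as a lower bound. Levels of different genes rest on different probes and are not compared with each other. Where summed or mean signals of marker genes are given, they are deposited linear signals without normalisation between arrays.

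The arrays detected 33.9% to 35.6% of probes with CEBPB and 34.8% to 35.9% with STAT3C, with a median of 44 to 45 beads per probe. Arrays of 1 group did not all lie together. On the first principal component, which held 50.2% of the variance of the C17.2 arrays, the CEBPB arrays stood at 41.8, 43, -22.4 and 36.7 and the STAT3C arrays at -37.7, -12.3, 34.8 and 16.6. CEBPB replicate 3 and STAT3C replicates 1 and 2 thus lay on the negative side. All 4 STAT3C arrays and CEBPB replicates 1 and 2 shared slide 2, CEBPB replicates 3 and 4 lay on slide 3 with the STAT3C+CEBPB arrays, and slide 1 held the controls alone. In comparisons with control, slide and vector cannot be told apart.

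Markers of the labelled cell type were checked on the 8 arrays. The neural stem genes Nes, Sox2 and Vim were detected on all 8, and 19 of 29 genes of the neural stem and radial glia list were detected on at least 1. Pax6, Fabp7, Msi1 and Hes5, which also mark neural stem cells or radial glia, were detected on none.

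Transcripts of the transduced factors did not separate the groups as calls. Stat3 (chromosome 11, 100886806 to 100939594, GRCm38.p6, as for all positions) stood at 9.06, 9.29, 9.01 and 8.91 on the CEBPB arrays and at 10.17, 9.94, 10.04 and 9.91 on the STAT3C arrays. The groups did not overlap, but the difference of -0.95 (SE 0.35) had an adjusted p of 0.415 in limma. That SE rests on the spread of all 4 C17.2 groups. The SD of Stat3 was 0.16 with CEBPB, 0.12 with STAT3C and 0.21 in controls, but 1.05 with both factors. Cebpb averaged 10.26 ± 0.33 with CEBPB and 10.23 ± 0.52 with STAT3C (SD, n = 4 each), a difference of 0.03 (SE 0.29, limma adjusted p = 0.981). Whether these probes read the transcripts made from the vectors was not examined, so neither value measures the dose of a transduced factor.

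Between CEBPB and STAT3C, 22 of 9699 genes were called (0.227%): 8 were higher with CEBPB (0.0825%) and 14 lower (0.144%). The genes with the largest differences were lower with CEBPB and included Aqp1, a water channel, Pmp22, a myelin protein, Flt1, a receptor for VEGF, and Mgp, an inhibitor of calcification in the matrix. Nectin2, an adhesion molecule, had the largest difference among the genes called higher. The arrays of the groups did not overlap for any of the 22, against 587 of all tested genes without overlap (6.05%), 318 of them higher with CEBPB (3.28%) and 269 lower (2.77%). Choosing genes by a small p on the same arrays itself favours groups without overlap, so this count is a description with no test. At an unadjusted p below 0.05 there were 891 genes (9.19%), and the smallest adjusted p was 0.0152. The median difference of all genes was 0.02, and 52.3% of differences were positive.

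The number of calls rested on few arrays. Leaving out 1 CEBPB array left 1, 1, 20 and 10 calls for replicates 1 to 4, and leaving out 1 STAT3C array left 6, 0, 7 and 9. The 0 calls without STAT3C replicate 2 stood beside 613 genes at an unadjusted p below 0.05, in limma. Without CEBPB replicate 1 the 1 call was Mgp, and without CEBPB replicate 2 it was Cul7. Mgp and Cul7 were called in 6 of the 8 such fits, Cavin4 in 5, and Aqp1 and Pmp22 in 4. Flt1, Gemin2, Pcdh19, Tmem86a and Vps26a were called in none of them. All 22 genes kept their direction in each of the 8 fits. Because their groups did not overlap, this was fixed in advance.

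Slide entered the comparison through CEBPB replicates 3 and 4 only. With slide as a fixed block the estimate is the same as within slide 2, where 2 CEBPB arrays meet 4 STAT3C arrays. It called 1 gene, Aqp1 (0.0103% of genes tested), which neither CEBPB array of that slide detected, so its CEBPB level there is only a limit. On slide 2 Aqp1 was at least 18.8-fold lower with CEBPB (limma adjusted p = 0.000289). Pcdh19, Flt1, Klf4 and Ak5 were likewise undetected on both CEBPB arrays of slide 2, Mgp was detected on 1 of them, and the other 16 called genes were detected on both. The fitted differences of all 22 genes kept their sign within the slide, as groups without overlap must, with a median SE of 0.282.

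**Figure D1:**
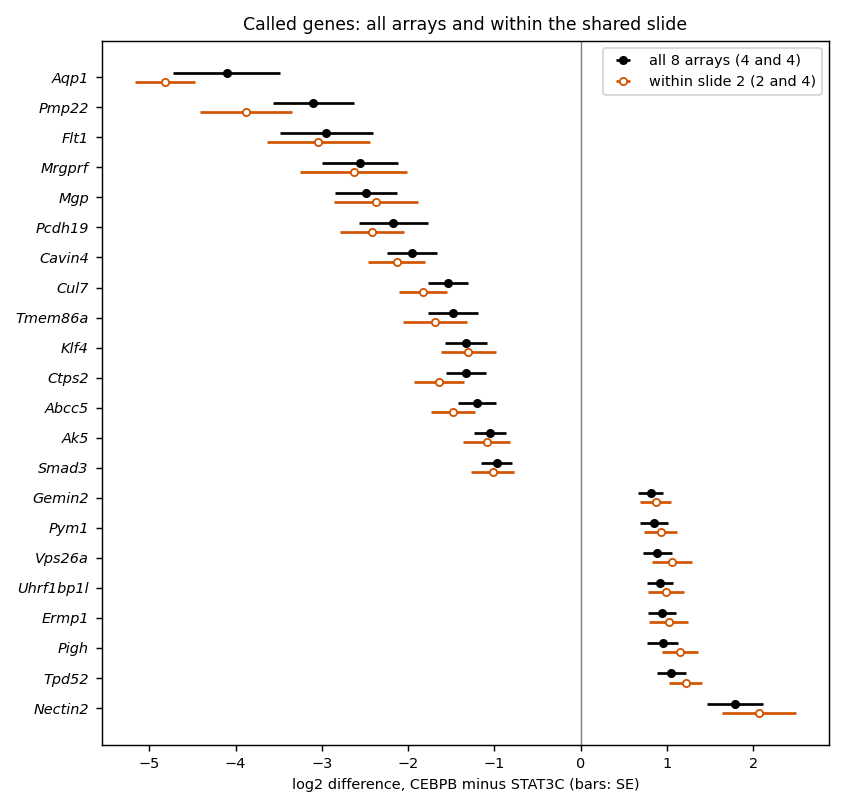
The horizontal axis gives the log2 difference, CEBPB minus STAT3C, of each called gene, with bars of 1 SE; filled points use all 8 arrays (4 and 4) and open points slide 2 (2 CEBPB and 4 STAT3C arrays). Open and filled points lie on the same side of 0 for all 22 genes, as they must where the groups do not overlap. Pmp22 stands at -3.88 within the slide and -3.10 over all arrays. For Flt1, Klf4 and Ak5, undetected on all CEBPB arrays, the points are fitted values set by undetected signals and are no measured differences. The same holds for the slide 2 values of Aqp1 and Pcdh19, undetected on both CEBPB arrays there.

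Among called genes of the cell surface, Aqp1 (chromosome 6, 55336299 to 55348555) had levels of 4.56, 4.44, 5.96 and 5.89 on the CEBPB arrays and 9.82, 9.19, 8.93 and 9.34 on the STAT3C arrays. Every CEBPB array lay below every STAT3C array, and the probe was detected on 2 of 4 CEBPB arrays and on 4 of 4 STAT3C arrays. The difference was -4.10 (SE 0.62, limma adjusted p = 0.0152), the largest among called genes, and further Aqp1 probes gave -2.01 and -2.89. Aqp1 averaged 4.94 ± 0.61 with both factors and 8.58 ± 1.62 in controls (SD, n = 4 each), and it fell with CEBPB relative to control by 3.36 (SE 0.62, limma adjusted p = 0.0216). The STAT3C minus control value was 0.74 (limma adjusted p = 0.639).

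The promoter window of Aqp1 is shown here because the gene had the largest difference among those called. RefSeq windows run from 250 bases before to 50 after the start of a gene and are written 5′ to 3′ on the gene's strand. Letters searched on both strands were TTGCNNAA, the C/EBP motif, and TTCNNNGAA, the STAT motif, with matches in capitals. The Aqp1 window lies at chr6:55336049-55336348 on the plus strand and holds neither.

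Aqp1: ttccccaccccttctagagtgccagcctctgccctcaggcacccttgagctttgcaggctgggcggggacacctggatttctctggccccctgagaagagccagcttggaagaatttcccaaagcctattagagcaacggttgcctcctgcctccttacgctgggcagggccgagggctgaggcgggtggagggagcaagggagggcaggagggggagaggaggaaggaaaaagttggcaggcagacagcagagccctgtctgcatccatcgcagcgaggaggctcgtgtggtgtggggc

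Pmp22 (chromosome 11, 63128982 to 63159547), a membrane protein of myelin that other cells also make, stood at 6.73, 5.57, 7.83 and 7.57 with CEBPB and at 10.41, 9.80, 10.01 and 9.89 with STAT3C. The CEBPB arrays were the more spread, and all 4 lay below the STAT3C arrays. The difference was -3.10 (SE 0.47, limma adjusted p = 0.0152), 8.59-fold lower with CEBPB, and a second probe gave -3.06. Controls averaged 10.40 ± 0.18 (SD, n = 4), so CEBPB minus control was -3.47 (limma adjusted p = 0.00596) and STAT3C minus control was -0.37.

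Flt1 (chromosome 5, 147561604 to 147726438), the VEGF receptor 1, was detected on no CEBPB array and on all 4 STAT3C arrays. Its levels were 4.58, 4.91, 4.98 and 4.84 with CEBPB, at the level of undetected probes, and 7.01, 8.89, 8.04 and 7.17 with STAT3C. It was at least 6.60-fold lower with CEBPB (limma adjusted p = 0.0368). Cells with both factors averaged 5.49 ± 0.94 and controls 5.73 ± 1.08 (SD, n = 4 each), and STAT3C minus control, at 2.05, was not called (limma adjusted p = 0.222). Flt1 also stands in the endothelial marker list, of which 7 of 14 genes were detected on any of the 8 arrays. The summed signal of that list was 275 to 467 with CEBPB and 629 to 997 with STAT3C, a sum that includes Flt1. Such signals are not normalised, and the upper quartile of all probes was 39.5 to 47.5 on the CEBPB and 47 to 54.1 on the STAT3C arrays. Eng and Egfl7 of that list were detected on all 8 arrays, with mean signals of 214 and 116 with CEBPB and 339 and 156 with STAT3C. Pecam1, Cdh5 and Kdr were detected on 1 CEBPB and 1 STAT3C array each and Tek on 1 STAT3C array, and Cldn5, Vwf, Tie1, Emcn, Esam, Ptprb and Robo4 on none of the 8. The part of such cells in the Flt1 difference was not tested, and in bulk RNA fewer cells of a type and less RNA per cell cannot be told apart.

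Mrgprf (chromosome 7, 145300909 to 145309557), an orphan member of the Mas-related G protein-coupled receptors, had levels of 6.45, 6.27, 5.71 and 7.27 with CEBPB and 9.28, 9.75, 8.77 and 8.14 with STAT3C. The difference was -2.56 (SE 0.44, limma adjusted p = 0.0368). Controls, at 8.51 ± 0.33 (SD, n = 4), lay near the STAT3C mean, and CEBPB minus control was -2.09 (limma adjusted p = 0.0348). Pcdh19 (chromosome X, 133582860 to 133689044), a protocadherin of cell adhesion in the nervous system, had 4.70, 4.33, 4.66 and 5.34 with CEBPB and 6.26, 7.67, 7.26 and 6.53 with STAT3C. It was detected on 1 CEBPB array and on all 4 STAT3C arrays, and the difference was -2.17 (SE 0.40, limma adjusted p = 0.0368).

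Nectin2 (chromosome 7, 19716644 to 19749573), an immunoglobulin-like molecule of cell junctions, went the other way. It had 8.90, 9.05, 8.29 and 8.54 with CEBPB and 6.53, 6.99, 7.30 and 6.81 with STAT3C, so its lowest CEBPB array stood above its highest STAT3C array. The difference was 1.79 (SE 0.32, limma adjusted p = 0.0368), 3.45-fold higher with CEBPB, and further probes gave 1.46 and 1.56. Nectin2 rose with CEBPB relative to control by 2.44 (limma adjusted p = 0.00596), and cells with both factors averaged 8.63, against 6.25 in controls.

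**Figure D2:**
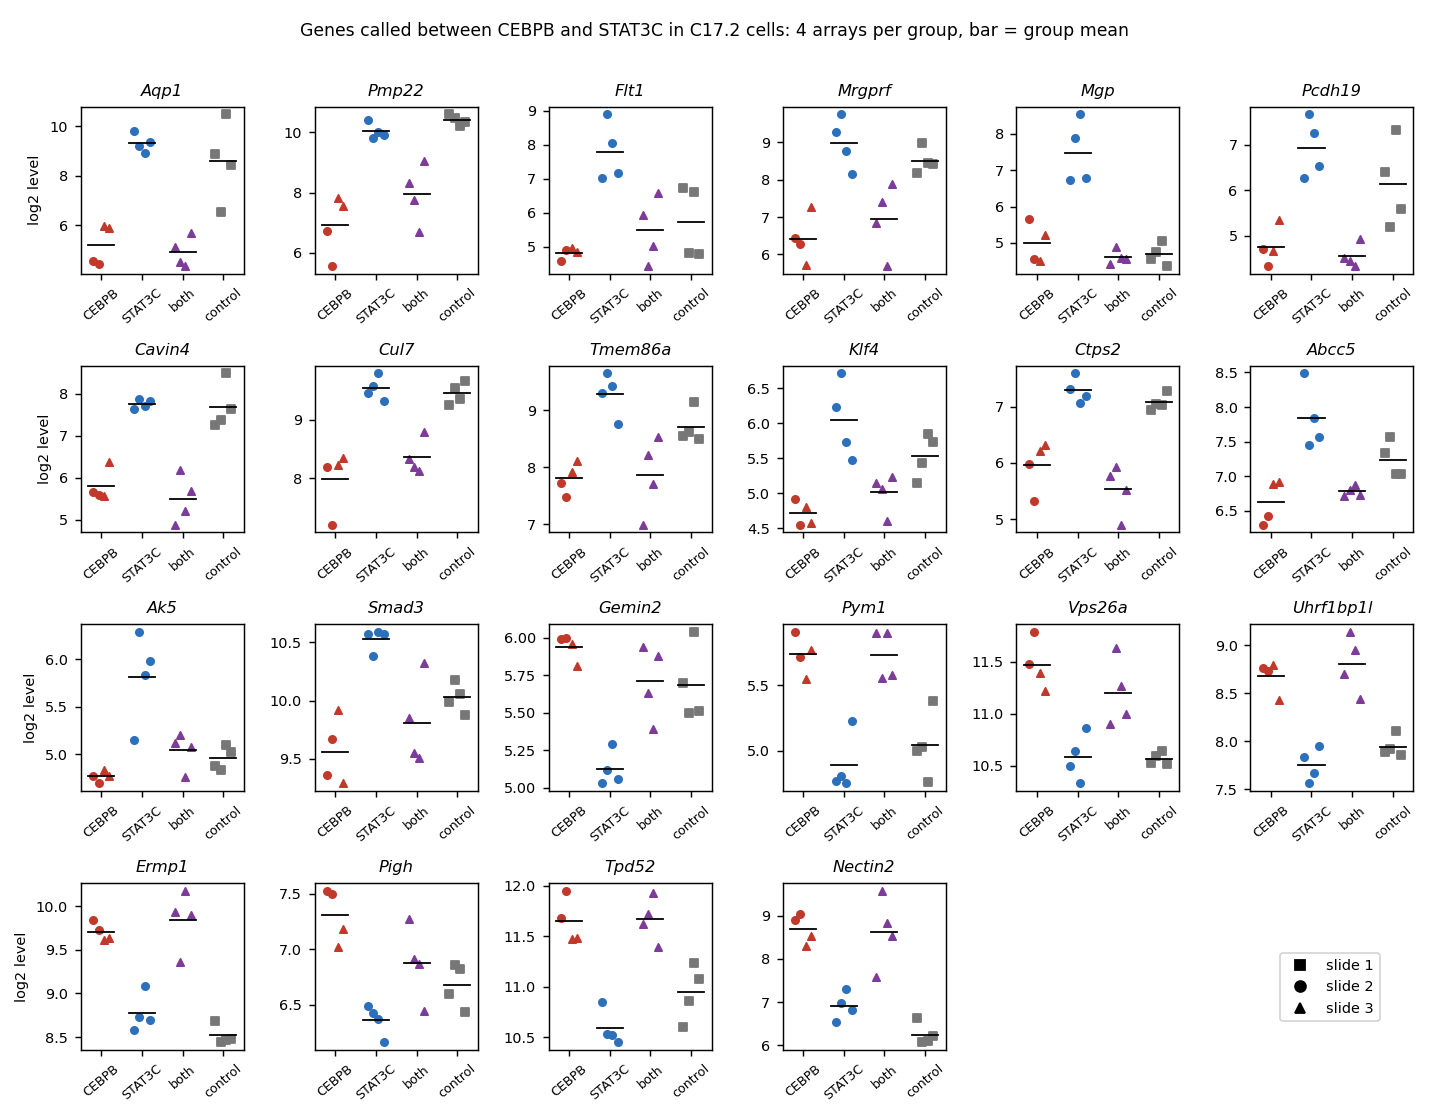
Each panel plots the log2 level of 1 called gene on the 4 CEBPB, 4 STAT3C, 4 STAT3C+CEBPB (both) and 4 control arrays; marker shape gives the slide and the bar the group mean. CEBPB and STAT3C arrays do not overlap in any of the 22 panels, and the STAT3C+CEBPB mean lies nearer the CEBPB mean in all 22.

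In the matrix, Mgp (chromosome 6, 136872435 to 136875823) had levels of 5.66, 4.56, 4.51 and 5.23 with CEBPB and 6.74, 7.88, 8.53 and 6.78 with STAT3C. It was detected on 2 CEBPB arrays and on all 4 STAT3C arrays, with a difference of -2.49 (SE 0.36, limma adjusted p = 0.0152). Mgp was the gene called in STAT3C minus control, the 1 such gene of 9699 (0.0103%), at 2.80 (limma adjusted p = 0.00917), whereas CEBPB minus control was 0.31 and controls averaged 4.68 ± 0.30 (SD, n = 4). Mgp belongs to the pericyte and meningeal fibroblast list. The summed signal of that list, which includes Mgp, was 1010 to 2880 with CEBPB, 1550 to 5630 with STAT3C and 565 to 1070 in controls. Of its 16 genes, 12 were detected on any of the 8 arrays. Col1a1, Col3a1, Foxc1 and Ogn of that list were detected on all 8, with mean signals of 939, 197, 60.3 and 505 with CEBPB and 1370, 523, 83.8 and 1130 with STAT3C. Pdgfrb had mean signals of 63.8 with CEBPB and 170 with STAT3C. Rgs5, Anpep, Lum and Slc6a13 were detected on none of the 8, and the part of such cells in the Mgp difference was not tested.

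The matrix and remodelling list held 39 tested genes, of which 10 had a positive difference and 1 (Mgp) was called. Its median difference was -0.27 over all arrays and -0.42 within slide 2, against 0.02 for all genes. Col6a1 and Col6a2, neighbouring chains of collagen VI on chromosome 10 chosen after their values were seen, fell short of a call. Col6a1 (76708792 to 76726044) stood at 8.52, 7.35, 9.19 and 8.58 with CEBPB and at 11.75, 11.53, 11.31 and 11.14 with STAT3C (-3.02, SE 0.64, limma adjusted p = 0.0821). Col6a2 (76595756 to 76623630) was detected on no CEBPB array and on all 4 STAT3C arrays, with levels of 4.68 to 4.99 with CEBPB and 6.09 to 7.49 with STAT3C (limma adjusted p = 0.0617). Some settings did call them: Col6a1 with only the 8 CEBPB and STAT3C arrays (limma adjusted p = 0.038), on the deposited values (0.0457) and with array weights (0.0084), and Col6a2 without the quantile step (0.043), without background correction (0.044) and with array weights (0.0195). Neither collagen overlapped between the groups.

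A transcription factor and a signal carrier were among the genes called lower with CEBPB. Klf4 (chromosome 4, 55527137 to 55532475), a zinc finger factor used in reprogramming to pluripotency and a known STAT3 target in mouse embryonic stem cells, had 4.92, 4.55, 4.80 and 4.58 with CEBPB and 6.24, 6.72, 5.74 and 5.47 with STAT3C. Detected on no CEBPB array and on all 4 STAT3C arrays, it was at least 1.98-fold lower with CEBPB (limma adjusted p = 0.0368). Smad3 (chromosome 9, 63646766 to 63757994), which carries TGF-beta signals to the nucleus, had 9.36, 9.67, 9.92 and 9.29 with CEBPB and 10.57, 10.38, 10.59 and 10.57 with STAT3C. The difference was -0.97 (SE 0.18, limma adjusted p = 0.0368), a second probe gave -0.60, and the control mean of 10.03 lay between the groups.

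Cavin4 (chromosome 4, 48663514 to 48673492), a coat protein of caveolae known from muscle, had 5.67, 5.58, 5.56 and 6.37 with CEBPB and 7.64, 7.87, 7.70 and 7.82 with STAT3C. The STAT3C arrays were close together, and the difference was -1.96 (SE 0.29, limma adjusted p = 0.0152). Cul7 (chromosome 17, 46650338 to 46664364), a scaffold of a ubiquitin ligase, had 8.19, 7.21, 8.23 and 8.34 with CEBPB and 9.45, 9.57, 9.79 and 9.32 with STAT3C, a difference of -1.54 (SE 0.23, limma adjusted p = 0.0152). Both genes also fell with CEBPB relative to control, with CEBPB minus control at -1.89 for Cavin4 and -1.46 for Cul7 (limma adjusted p = 0.0116 each).

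The remaining called genes that were lower with CEBPB act in nucleotide and lipid metabolism and export. Tmem86a (chromosome 7, 47050640 to 47054776), a lysoplasmalogenase, had 7.72, 7.48, 7.91 and 8.11 with CEBPB and 9.30, 9.65, 9.43 and 8.76 with STAT3C (-1.48, SE 0.29, limma adjusted p = 0.0488). Ctps2 (chromosome X, 162901268 to 163034541), a CTP synthase, had 5.98, 5.33, 6.22 and 6.32 with CEBPB and 7.31, 7.60, 7.07 and 7.20 with STAT3C (-1.33, SE 0.23, limma adjusted p = 0.0368). Abcc5 (chromosome 16, 20331303 to 20426428), an exporter of cyclic nucleotides, had 6.30, 6.42, 6.89 and 6.92 with CEBPB and 8.49, 7.45, 7.84 and 7.56 with STAT3C (-1.20, SE 0.22, limma adjusted p = 0.0368). Ak5 (chromosome 3, 152462815 to 152668406), an adenylate kinase named after its values were seen, was detected on no CEBPB array and on all 4 STAT3C arrays. Its levels were 4.69 to 4.83 with CEBPB and 5.15 to 6.29 with STAT3C, at least 1.69-fold lower with CEBPB (limma adjusted p = 0.0368). None of these 4 genes overlapped between the groups.

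The other 7 genes called higher with CEBPB had smaller differences, of 0.81 to 1.05. Membrane traffic and lipids were represented by Tpd52, Vps26a, Uhrf1bp1l and Pigh. Tpd52 (chromosome 3, 8926530 to 9005393), a protein of vesicle traffic, had 11.68, 11.95, 11.47 and 11.48 with CEBPB and 10.85, 10.53, 10.52 and 10.45 with STAT3C, a difference of 1.05 (SE 0.17, limma adjusted p = 0.0235). Vps26a (chromosome 10, 62454843 to 62486805), a subunit of the retromer, which sends cargo back from endosomes, had 11.48, 11.79, 11.39 and 11.22 with CEBPB and 10.50, 10.64, 10.33 and 10.86 with STAT3C, a difference of 0.89 (SE 0.17, limma adjusted p = 0.0469). A second Vps26a probe gave 0.88.

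Uhrf1bp1l (chromosome 10, 89744968 to 89819891), of a family of lipid transfer proteins, had 8.76, 8.73, 8.80 and 8.43 with CEBPB and 7.84, 7.56, 7.67 and 7.95 with STAT3C (0.92, SE 0.15, limma adjusted p = 0.0339). Pigh (chromosome 12, 79080669 to 79089753), which takes part in the first step of GPI anchor synthesis, had 7.53, 7.50, 7.02 and 7.18 with CEBPB and 6.49, 6.42, 6.37 and 6.16 with STAT3C (0.95, SE 0.18, limma adjusted p = 0.0368). Its second probe gave 0.18. In both genes the lowest CEBPB array was above the highest STAT3C array.

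Protein processing and RNA handling were represented by Ermp1, Pym1 and Gemin2. Ermp1 (chromosome 19, 29609876 to 29648415), a peptidase of the endoplasmic reticulum, had 9.84, 9.73, 9.61 and 9.64 with CEBPB and 8.58, 8.73, 9.08 and 8.70 with STAT3C (0.94, SE 0.16, limma adjusted p = 0.0368). It also rose relative to control, by 1.19 (limma adjusted p = 0.00596). Its 2 further probes gave 0.19 and 0.16. They averaged 5.07 and 5.05 with CEBPB and 4.88 and 4.89 with STAT3C, near the level of undetected probes, which leaves little room to see a difference. Pym1 (chromosome 10, 128747879 to 128766568), which takes exon junction complexes apart, had 5.91, 5.72, 5.55 and 5.77 with CEBPB and 4.77, 4.81, 4.75 and 5.23 with STAT3C (0.85, SE 0.16, limma adjusted p = 0.0368). Pym1 was detected on 4 CEBPB arrays and 1 STAT3C array. Gemin2 (chromosome 12, 59013391 to 59028470), of the SMN complex that assembles spliceosomal particles, had 5.81 to 6 with CEBPB and 5.03 to 5.29 with STAT3C (0.81, SE 0.15, limma adjusted p = 0.0368). The second Gemin2 probe gave -0.10, at low means of 5.24 with CEBPB and 5.34 with STAT3C, and was the only further probe of opposite sign. Further kept probes existed for 9 called genes, 12 in all, of which 11 had the same sign and 8 an unadjusted p below 0.05.

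Promoter windows were found for 18 of the 22 genes. The C/EBP letters stood in 0 of 7 windows of genes higher with CEBPB and in 1 of 11 of genes lower (9.09%), against 9.83% of the 7895 tested genes with a window and 12.2% of 27025 genes in all. The STAT letters stood in 2 of 7 (28.6%) and 1 of 11 (9.09%), against 8.23% and 9.55%. The windows of Abcc5, which holds both motifs, and of Uhrf1bp1l and Pym1, which hold the STAT motif, are shown because they held a match. In Abcc5 (chr16:20426345-20426644, minus strand) the STAT match begins 60 bases before the start and the C/EBP match 15 bases after it. In Uhrf1bp1l (chr10:89744741-89745040, plus strand) the match begins 64 bases before the start, and in Pym1 (chr10:128747629-128747928, plus strand, 1 of its 2 windows) 167 bases before it. A match is a description of the letters and does not show a bound site.

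Abcc5: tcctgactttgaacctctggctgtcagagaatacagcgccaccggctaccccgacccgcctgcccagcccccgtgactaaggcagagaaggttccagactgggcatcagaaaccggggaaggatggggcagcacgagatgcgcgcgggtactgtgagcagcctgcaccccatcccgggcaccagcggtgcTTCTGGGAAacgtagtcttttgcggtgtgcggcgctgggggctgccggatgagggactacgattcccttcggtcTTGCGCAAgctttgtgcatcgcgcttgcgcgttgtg

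Uhrf1bp1l: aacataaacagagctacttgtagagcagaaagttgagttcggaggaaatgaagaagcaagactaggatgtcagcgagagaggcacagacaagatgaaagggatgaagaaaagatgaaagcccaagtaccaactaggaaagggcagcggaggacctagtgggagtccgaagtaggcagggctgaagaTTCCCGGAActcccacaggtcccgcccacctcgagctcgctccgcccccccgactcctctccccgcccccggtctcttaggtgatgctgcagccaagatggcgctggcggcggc

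Pym1: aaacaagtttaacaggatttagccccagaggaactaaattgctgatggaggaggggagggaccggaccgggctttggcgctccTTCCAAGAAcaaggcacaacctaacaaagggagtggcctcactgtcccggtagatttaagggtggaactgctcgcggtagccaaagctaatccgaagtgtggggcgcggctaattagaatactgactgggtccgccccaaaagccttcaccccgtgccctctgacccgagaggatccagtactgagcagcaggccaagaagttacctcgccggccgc

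Levels in the remaining C17.2 groups placed cells with both factors on the side of CEBPB. The mean of the STAT3C+CEBPB arrays lay nearer the CEBPB than the STAT3C mean for 22 of 22 called genes, against 55.6% of all tested genes. Those arrays share slide 3 with CEBPB replicates 3 and 4. Set against the mean of the CEBPB arrays of slide 2, the count was 21 of 22, against 43% of all genes. For 20 of the 22 the STAT3C+CEBPB arrays did not overlap the STAT3C arrays on the side of CEBPB, against 5.07% of all genes. The CEBPB and STAT3C values enter both this placement and the choice of the genes, so it is a description with no test.

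Relative to control, 11 of the 22 genes were called with CEBPB, 5 higher and 6 lower, against 1.62% of all genes, 0.949% higher and 0.67% lower, while 1, Mgp, was called with STAT3C (0.0103%). Both comparisons with control share the control arrays, and they also share arrays with the comparison of the factors. For 10 genes, 3 higher and 7 lower, neither comparison with control was called, and the control mean lay between the factor means for all 10. Over the 22 the control mean lay between for 17, against 23.9% of all genes. Choosing genes by a large difference between the factors, or by no call against control, itself favours a control mean in between. Both counts of such means are a description with no test.

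Of genes named in earlier work on these arrays for levels above control, Ccn2, P2ry14 and Gstm2 were not called between the factors when all arrays entered alike. Ccn2, a matricellular protein and target of YAP and TEAD factors, averaged 11.98 ± 1.13 with CEBPB and 9.93 ± 0.56 with STAT3C (SD, n = 4 each), against 9.01 in controls, with a difference of 2.05 (SE 0.50, limma adjusted p = 0.159). Its arrays overlapped, since CEBPB replicate 3 stood at 10.37 and the highest STAT3C array at 10.41. Without CEBPB replicate 3 Ccn2 was called (2.59, limma adjusted p = 0.03), as it was with array weights (2.23, limma adjusted p = 0.00759). P2ry14, a receptor for UDP-sugars, averaged 12.56 with CEBPB and 11.58 with STAT3C, against 9.65 in controls (0.97, limma adjusted p = 0.415). Gstm2, a glutathione transferase, averaged 11.11 with CEBPB and 10.06 with STAT3C, against 6.93 in controls (1.05, limma adjusted p = 0.707).

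Gene lists are described by their counts beside those of all genes tested, of which 0.227% were called, 52.3% had a positive difference, and 3.28% and 2.77% were higher and lower without overlap. At that share of calls a list of these sizes would mostly hold 0, so counts of 0 or 1 do not set a list apart. Within slide 2 and in the 8 fits without 1 array, the medians of 13 of the 29 lists kept their sign, 10 below 0 and 3 above. Among 32 tested STAT3 targets, Klf4 was called lower with CEBPB, 13 differences were positive and the median was -0.10, which ran from -0.19 to 0.07 over those fits and was 0.03 within slide 2. Among 17 tested C/EBP targets none was called, 7 differences were positive and the median was -0.06, with Igf1, a growth factor, at 5.01 to 6.30 with CEBPB and 6.33 to 7.88 with STAT3C (-1.57, SE 0.58, limma adjusted p = 0.415). Gadd45a, of the growth arrest response, stood at 7.19 to 8.10 with CEBPB and 8.55 to 8.79 with STAT3C (-1.18, SE 0.38, limma adjusted p = 0.324). The arrays of Igf1 and Gadd45a did not overlap between the groups.

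In the JAK-STAT receptor and feedback list 0 of 31 genes were called and the median was 0.03. Socs6, of the suppressors of cytokine signalling, stood at 0.60 (SE 0.20, limma adjusted p = 0.339), with 6.45 to 7.20 with CEBPB and 5.92 to 6.37 with STAT3C. The list of the C/EBP family and mesenchymal regulators had 0 of 11 called and a median of 0.04. For acute phase and complement genes 0 of 8 were called, 1 difference was positive and the median was -0.16. Cp, which makes the copper protein ceruloplasmin, had 6.45, 5.44, 5.56 and 7.19 with CEBPB and 8.50, 9.30, 9.49 and 8.79 with STAT3C (-2.86, SE 0.59, limma adjusted p = 0.0677), and its groups did not overlap. In the chemokine and cytokine list 0 of 20 were called and the median was -0.07, but 0.25 within slide 2, 0.15 without CEBPB replicate 3 and 0.24 without STAT3C replicate 3, with the monocyte attractant Ccl7 at -2.92 (SE 1.02, limma adjusted p = 0.378).

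Mesenchymal glioma genes had 1 of 54 called (Mgp), 27 positive differences and a median of 0. Proneural glioma genes had 0 of 17 called, 6 positive and a median of -0.25. For TGF-beta and BMP genes, Mgp and Smad3 of 33 were called lower, 11 differences were positive and the median was -0.10. YAP/TEAD targets had 0 of 27 called and a median of -0.09, with Nt5e, the ectoenzyme CD73, at -2.06 (SE 0.47, limma adjusted p = 0.134). Contractile and SRF genes had 1 of 29 called (Cavin4) and a median of 0.10. Of 44 adhesion and guidance receptors, Nectin2 was called higher and Pcdh19 lower, and the median was 0. Growth factor ligands and receptors had 1 of 37 called (Flt1) and a median of -0.02.

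In the metabolic and stress lists 0 genes were called, against 0.227% of all genes. The medians were 0 for 28 cholesterol and fatty acid synthesis genes, -0.08 for 29 glycolysis and hypoxia genes, 0.01 for 29 glutathione and NRF2 genes and 0.15 for 41 ATF4 and ER stress genes. Txnrd1, a thioredoxin reductase under NRF2, stood at 6.47 to 6.85 with CEBPB and 5.88 to 6.26 with STAT3C, without overlap (0.66, SE 0.18, limma adjusted p = 0.231). Calr, the chaperone calreticulin, stood at 9.73 to 9.91 with CEBPB and 10.14 to 10.32 with STAT3C, without overlap (-0.45, SE 0.12, limma adjusted p = 0.231). Cholesterol genes lay at a median of 0.48 over control with CEBPB and 0.48 with STAT3C. Interferon-stimulated genes had 0 of 28 called and a median of 0.05, MHC class I presentation genes 0 of 18 and 0.09, and cell cycle genes 0 of 46 and 0.05.

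Of the cell type lists, the medians were -0.19 for 16 neural stem and radial glia genes, -0.15 for 12 astrocyte genes and -0.24 for 18 neuronal differentiation genes, with 0 calls in each. Within slide 2 they were -0.15, 0 and -0.15 in the same order, and the astrocyte median turned to 0.01 without CEBPB replicate 3 and 0.06 without STAT3C replicate 3. Acsl6, an acyl-CoA synthetase of the astrocyte list, stood above 0 at 1.39 (SE 0.39, limma adjusted p = 0.251), with 8.09 to 9.44 with CEBPB and 6.57 to 8.06 with STAT3C. The oligodendrocyte and myelin list had 1 of 11 called (Pmp22), 3 positive differences and a median of -0.48, and -0.95 within slide 2. Its summed signal, which includes Pmp22, was 283 to 5560 with CEBPB, 1340 to 8780 with STAT3C and 1760 to 11700 in controls. Sox10 had the largest mean signals of the list, 1150 with CEBPB and 2630 with STAT3C, and was detected on 1 and 3 arrays. Of 29 genes, 15 were detected on any of the 8 arrays, while Olig1, Olig2, Mog, Opalin and Myrf were detected on none. The part of such cells in the Pmp22 difference was not tested. The pericyte and meningeal fibroblast list had 1 of 8 called (Mgp), 1 positive difference and a median of -1.04, and -1.19 within slide 2. The 4 tested endothelial genes, with Flt1 called, had a median of -0.38, and -0.58 within slide 2. The microglia and macrophage list and the erythroid list had 2 tested genes each and 0 calls. Of the 16 microglia and macrophage genes on the array, 3 were detected on any of the 8 arrays. Cd14 was detected on 3 CEBPB and 3 STAT3C arrays, Aif1 on 1 and 2, and Tmem119 on 1 STAT3C array. The summed signal of that list was 12.9 to 158 with CEBPB, -23.8 to 260 with STAT3C and 3.96 to 22.1 in controls. Csf1r, Itgam and Ptprc, defining genes of microglia and blood cells, were detected on none of the 8 arrays.

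**Figure D3:**
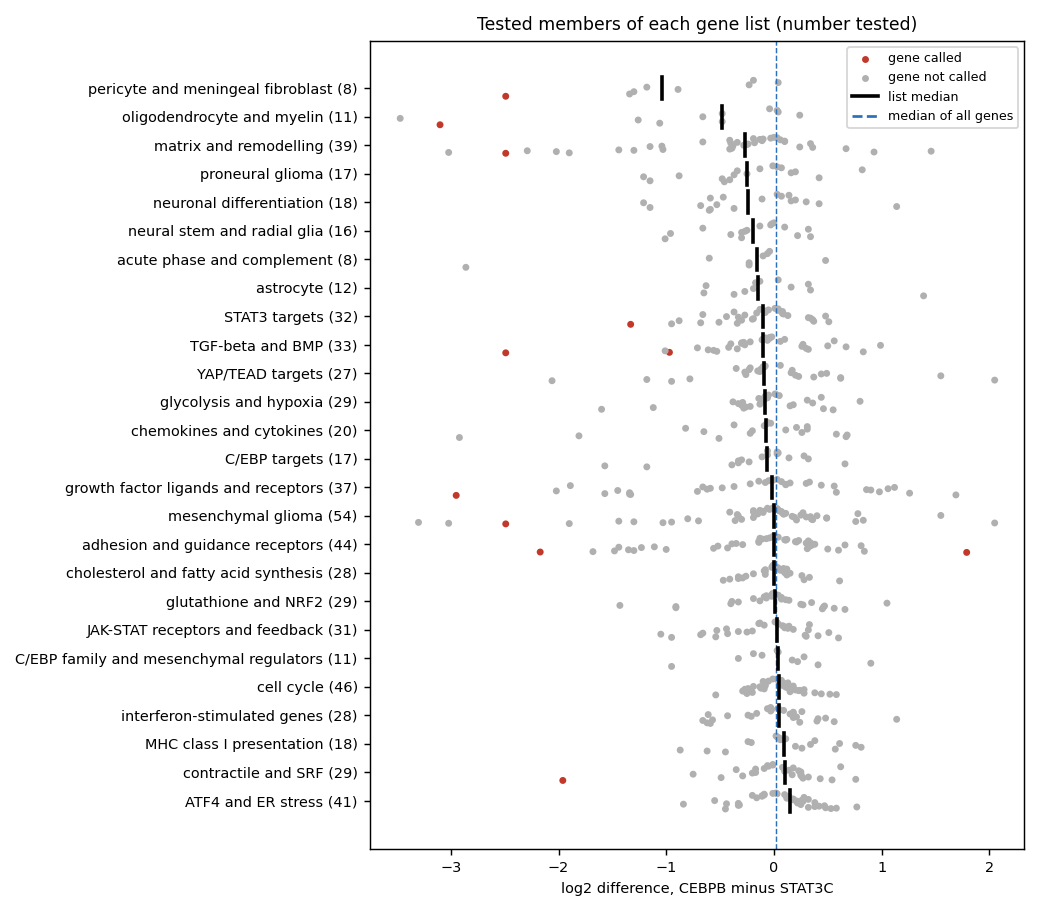
Each point is the log2 difference, CEBPB minus STAT3C, of 1 tested member of a gene list, with called genes in red, the list median as a black bar and the median of all tested genes (0.02) as a dashed line; the number tested stands beside each name. The endothelial, microglia and macrophage, and erythroid lists, with 4, 2 and 2 tested genes, are not drawn. Each list drawn holds 0 to 2 called genes. The pericyte and meningeal fibroblast list (median -1.04) and the oligodendrocyte and myelin list (median -0.48) lie farthest to the left. For genes undetected in 1 group the fitted value is shown.

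Differences were not spread evenly over the chromosomes. On chromosome 10, with 492 tested genes, 76.8% of differences were positive, the median was 0.22 and, within slide 2, 0.33. There, 47 genes had arrays without overlap that were higher with CEBPB (9.55%, against 3.28% of all genes) and 4 lower (against 2.77% of all genes). Of the 8 genes called higher, 3 (Pym1, Vps26a and Uhrf1bp1l) lie on chromosome 10, which holds 492 of the 9699 tested genes. Col6a1 and Col6a2, also on it, stood lower with CEBPB. On chromosome 4, with 600 tested genes, 28.3% of differences were positive and the median was -0.17 (-0.15 within slide 2). Of its genes without overlap, 34 were lower and 3 higher, against 2.77% and 3.28% of all genes. Chromosome 4 carries Cavin4 and Klf4. On chromosome 13 the median was 0.14 (0.09 within slide 2). The mean level of chromosome 10 genes, each centred on its own mean, ran from -0.0556 to 0.266 over the CEBPB arrays and from -0.176 to 0.12 over the STAT3C arrays, so the groups overlapped. For chromosome 4 genes that mean ran from -0.181 to -0.149 with CEBPB and from -0.141 to 0.186 with STAT3C, so the groups did not overlap. The chromosome 10 mean alone was tried as a covariate, an alternative chosen after seeing the data. With it 2 genes were called, Mgp and Cavin4, and all 22 kept their direction. The part of the chromosome shifts in the differences of single genes was not otherwise tested.

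**Figure D4:**
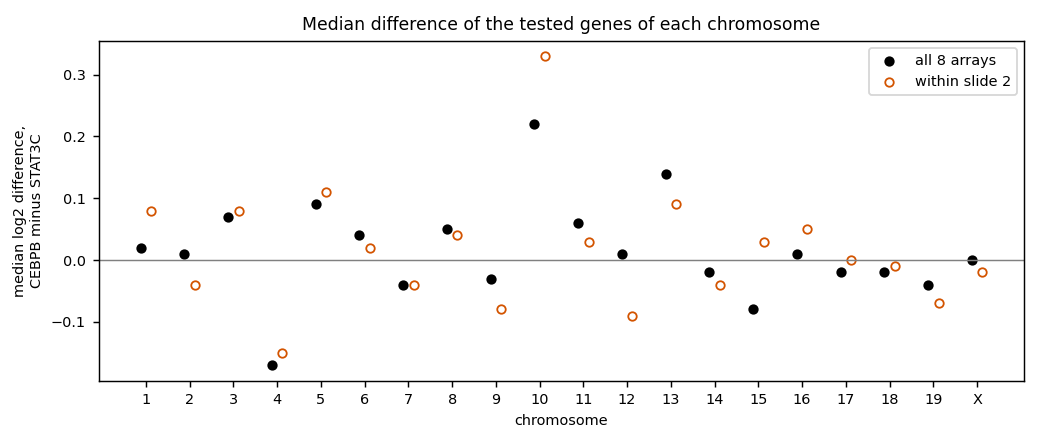
For each chromosome the median log2 difference, CEBPB minus STAT3C, of its tested genes is plotted, with filled points for all 8 arrays and open points for slide 2. Chromosome 10 stands highest, at 0.22 and 0.33, and chromosome 4 lowest, at -0.17 and -0.15.

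In NSC the same contrast, fitted with slide as a term, gave 1 call among 10858 genes (0.00921%) and 582 genes (5.36%) at an unadjusted p below 0.05. The gene was Ccdc80, a matrix protein named after its value was seen, at -1.35 (SE 0.16, limma adjusted p = 0.00297), with plain means of 6.76 ± 0.45 with CEBPB and 7.25 ± 0.11 with STAT3C (SD, n = 4 each). Of the NSC arrays, 3 STAT3C arrays lay on slide 4 and 3 CEBPB arrays on slide 5, and only slide 6 held both groups, with 1 array of each, so the fitted difference rests largely on that slide and departs from the plain means. In C17.2 the difference of Ccdc80 was -0.15. Of the 22 genes called in C17.2, 19 were tested in NSC, 8 had the same sign there and 0 were called, which at this overlap of slides does not show that they did not differ in NSC. The test of whether the difference itself changed between C17.2 and NSC called 0 of 11497 genes in limma. Its smallest adjusted p was 0.0724, and 666 genes (5.79%) had an unadjusted p below 0.05. The test without slide terms called 10, among them Aqp1, Mgp and Pmp22, and 3 other settings called 1 to 6.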

How the data were processed

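RNA (200 ng per array) was amplified and hybridised to 34 Illumina MouseWG-6 v2 arrays, 16 of them of C17.2. Per the file headers, each deposited file lists 45281 probes with their mean signal over beads, an intensity on a linear scale with values below 0, so that background had been subtracted by a step not given in the sources used here. A deposited detection p-value, which falls as the signal rises, stands beside it. Per the file headers the bead count was also given and served only to describe precision, and the bead spread, another quantity deposited, was not used here. The authors' normalised matrix, read as log2, served as an alternative only, since its transform is not stated. The submitters' processing notes name BeadStudio and lumi.

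Probes were named by the platform annotation, updated through RefSeq (GRCm38.p6) gene IDs: 34885 probes had 1 symbol and were used, 18 had several and 10378 none. Signals were normalised per cell type with neqc of limma 3.58.1 (R 4.3.3, offset 16), filtered on detection, reduced to the probe of highest mean per gene and fitted with lmFit and eBayes over the 4 C17.2 groups, with two-sided tests. For a bound, an array without detection was given the lowest level among its detected probes, unless the gene's own level was higher. The fit was tested on simulated data with known answers. Of 100 genes changed by a log2 size of 1, 63 were recovered, with 10 false calls. At a size of 3, 96 of 100 were recovered, with 10 false calls. Array pairs with identical values numbered 0.

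The genes, gene lists and tests were chosen with earlier results of these data known. Named genes are Stat3 and Cebpb, up to 12 called genes in each direction by size among those without overlap, the called members or the 2 of smallest p of each of the 29 lists, those called within the shared slide or between cells, and 6 genes named in earlier work on these arrays. Not all genes so chosen are printed. Alternatives changed the arrays in the fit, slide, normalisation, filter, probes, moderation and weights, or left out arrays. The number of arrays limits the precision.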

Additional observations from a re-analysis of the deposited data

Results flagged for a closer look

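Among 126 sets of 4 arrays (the CEBPB and the STAT3C arrays of each of 63 named genes), 7 held 1 array far from the other 3. Chance alone marks about 1 in 20 such sets. Among CEBPB arrays, Cavin4 stood at 6.37 on replicate 4, against 5.56 to 5.67 on the others, and Cul7 at 7.21 on replicate 2, against 8.19 to 8.34. CEBPB replicate 3 held the neuronal genes Eno2, an enolase, at 7.28 (others 4.49 to 4.83) and Map2, a microtubule protein, at 8.58 (others 6.10 to 6.43). Neither of these genes was called, and that array also stood apart on the first principal component. Among STAT3C arrays, Smad3 stood at 10.38 on replicate 2, against 10.57 to 10.59, and Calr at 10.14 on the same array, against 10.30 to 10.32. Pym1 stood at 5.23 on STAT3C replicate 4, the array on which it was detected, against 4.75 to 4.81 on the others.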

How the results depend on the processing

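The main comparison called 22 genes. It called 6 with only the 8 CEBPB and STAT3C arrays in the fit, 1 with slide as a fixed block or within slide 2, 14 on the authors' deposited values (12 of them shared, with log2 differences at a median of 0.416 times those above), 8 with no detection filter, 13 with detection at p below 0.01 on all 8 arrays and 86 with array weights, which included all 22. Calls numbered 16 to 22 with slide as a random block, without the quantile step, without background correction, with probe means or with trend and robust moderation. Leaving out 1 array at a time gave 0 to 20 calls. Alternatives chosen after seeing the data gave 2 calls each, with the chromosome 10 mean as a covariate and without CEBPB replicate 3 and STAT3C replicate 1, the lowest array of each group on the first principal component; without both arrays the calls were Ak5 and Mgp. All called genes that an alternative tested kept their direction. For fits that only left out arrays this was fixed in advance, since the groups did not overlap. Of 475 values of the 22 called genes under alternatives, 202 kept the call, 273 lost it and 0 changed direction. In NSC the 1 call became 2 with no filter, and 1 to 5 with 1 array left out (4 without STAT3C replicate 4, 5 without CEBPB replicate 4). Between cells, the 0 calls became 10 with no slide term, 5 with slide terms for transduced C17.2 arrays too, 6 on the deposited values and 1 with no filter. The causes were not tested. No paired analysis was possible because the labels carry no replicate numbers, and those printed here only name arrays. Cp was called on the deposited values, with probe means and with array weights (limma adjusted p = 0.0457, 0.0386 and 0.0168), and Nt5e with only the 8 arrays and with array weights (0.048 and 0.0339). Signals near background limit Aqp1, Mgp, Pcdh19 and Pym1, detected on part of the arrays of 1 group.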
